A study of Drosophila melanogaster with 2 samples.

Results

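The genes described here make the factors that start and extend protein synthesis and the enzymes that charge tRNAs, set against binding of the homeodomain protein Hmx in Drosophila melanogaster embryos. Members were chosen by symbol alone. They are nuclear protein-coding genes named eIF or eEF, or named by 1 or 2 three-letter amino acid codes followed by RS, with an optional -m. Of 13945 nuclear protein-coding genes, 85 met the rule, namely 44 eIF genes, 8 eEF genes and 33 synthetase genes. The assay was ChIP-seq, in which DNA bound by a protein is pulled down with an antibody and sequenced. The material was a single fly line, Hmx-MiMIC-GFP, in which an eGFP exon in an intron of Hmx gives a tagged protein, and chromatin came from whole embryos of mixed sex aged 0 to 24 h. The 2 samples, numbered replicates 2 and 3, form 1 group with no second condition. The antibody field names Hmx while the sample description names GFP. The control alignment was not analysed here. In whole embryos, weak binding in many cells and strong binding in few cells cannot be told apart.

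The authors deposited ranked regions, each with a summit and a signal value on the peak caller's own scale, and the read depth behind them is unknown. A list of 30000 regions came from each replicate and another from both pooled, and by their own description these lists hold peaks together with background. A stricter set of 1607 regions passed the irreproducible discovery rate (IDR) procedure, which draws on how regions rank in the replicates. A region can be in the set without a counterpart in both lists, since both replicates listed a summit no more than 250 bp away for 1547 of its 1595 nuclear summits (97.0%). The 1595 are those on the chromosome arms, with signal values of 78.4 to 1041 and a median of 110.5. A gene is said here to have a summit when the summit falls in its body or in the 1 kb upstream, which places a region near a gene and does not show that the gene is regulated.

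Translation begins when initiation factors (eIFs) bring the initiator tRNA, the small ribosomal subunit and a capped mRNA together. The eIF2 complex carries the initiator tRNA, eIF2B recharges eIF2 with GTP, eIF3 organises the small subunit, and the eIF4 group handles the cap and unwinds the mRNA. Elongation factors (eEFs) then deliver charged tRNAs and move the ribosome along. Aminoacyl-tRNA synthetases attach each amino acid to its tRNA, and the genes ending in -m are named for the mitochondrial enzymes.

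The sequences below show what lay under the summits in each role group. Each is the stretch from 50 bases before to 50 bases after the strongest IDR summit of that group among those eligible for printing (the stronger summits of eIF6, eIF3c and eEF1alpha1 are not shown), read 5′ to 3′ on the strand of the named gene from the RefSeq copy of the dm6 assembly. Capitals mark matches, on either strand, to any of the 10 motifs searched, which are named further on. The windows lie at chrX:2703832-2703932 (plus strand) for eIF2Bbeta, chr2L:5052470-5052570 (minus) for eIF3h, chr3R:24109084-24109184 (minus) for eIF4EHP, chr3L:3222992-3223092 (plus) for eIF1, chr2L:10232855-10232955 (plus) for eEF1delta and chr2L:3037312-3037412 (minus) for SerRS.
eIF2Bbeta: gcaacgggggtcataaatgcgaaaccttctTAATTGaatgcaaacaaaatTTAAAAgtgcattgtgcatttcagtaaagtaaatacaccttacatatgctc
eIF3h: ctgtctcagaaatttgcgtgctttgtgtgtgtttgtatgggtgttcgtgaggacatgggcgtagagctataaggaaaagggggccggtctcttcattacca
eIF4EHP: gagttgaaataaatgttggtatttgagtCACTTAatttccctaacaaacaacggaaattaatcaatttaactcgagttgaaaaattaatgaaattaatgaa
eIF1: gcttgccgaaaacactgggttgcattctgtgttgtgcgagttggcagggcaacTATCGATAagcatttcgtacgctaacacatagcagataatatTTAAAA
eEF1delta: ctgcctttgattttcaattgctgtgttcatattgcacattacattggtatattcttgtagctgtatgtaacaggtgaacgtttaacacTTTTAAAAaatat
SerRS: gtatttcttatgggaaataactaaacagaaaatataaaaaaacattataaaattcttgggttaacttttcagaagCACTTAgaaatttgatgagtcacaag
The eIF1 window carries the DRE motif TATCGATA close to its centre, the eIF2Bbeta window carries the homeodomain site TAATTG, and the eIF3h window has no match to any motif searched.

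An IDR summit was found at 13 of 85 members, or 15.3% (95% Wilson interval 9.16 to 24.4%), against 12.2% of all nuclear protein-coding genes. The interval, which covers counting error only, contains the share of all genes. By family, 6 of 44 eIF genes (13.6%), 3 of 8 eEF genes (37.5%) and 4 of 33 synthetase genes (12.1%) had one. The interval for the eEF genes ran from 13.7 to 69.4%, and that for the eIF genes from 6.40 to 26.7%. All 4 synthetase genes were among the 18 without the -m ending, and 0 of 15 with it had an IDR summit (upper Wilson limit 20.4%). Cytoplasmic ribosomal protein genes, taken as the 92 symbols starting RpL, RpS or RpLP and a digit with their -like copies, had 26 with an IDR summit (28.3%), and mitochondrial ribosomal protein genes 13 of 73 (17.8%). No difference between these groups was tested.

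**Figure D1:**
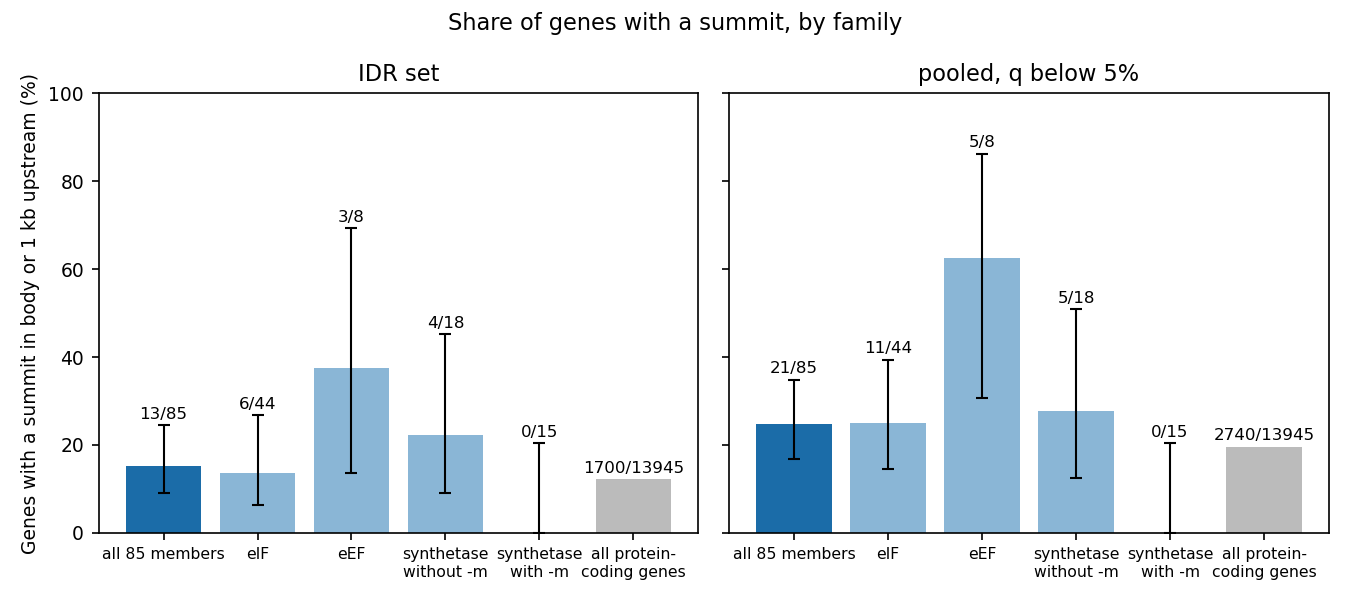
Share of genes, in percent, with a summit in the body or 1 kb upstream, for the IDR set (left) and for pooled regions with a q value below 5% (right). Bars are shares with 95% Wilson intervals and counts above them, and the grey bar is all nuclear protein-coding genes. The interval for all 85 members spans the grey bar in both panels, 15.3% against 12.2% and 24.7% against 19.6%.

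Members were a little longer than genes in general, with a median body of 2522 bp against 2166 bp. In genes with a body of 5 kb or shorter, 11 of 72 members (15.3%) had an IDR summit, against 8.96% of all such genes. In longer genes it was 2 of 13 members (15.4%), against 21.9% of all such genes. This division by length was chosen after the data were seen. When a summit had to lie within 500 bp of a start of the gene, 12 of 85 members (14.1%) had one, against 9.04% of all genes. The Wilson interval, 8.26 to 23.1%, contains the share of all genes.

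The 15 member summits, carried by 13 genes, had signal values of 79.0 to 807.5 with a median of 115.5, against a median of 110.5 for all 1595 nuclear IDR summits, and 8 of the 15 were above that median. Only eIF1 and eIF4EHP had 2 summits each.

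Among the initiation factors, eIF2Bbeta, a subunit of the exchange factor that recharges eIF2, had the strongest member summit, rank 4 of the 1595. Its region at X 2703716 to 2704069 had a pooled signal of 807.5, with 397.1 (rank 21 of 30000) in replicate 2 and 413.2 (rank 8) in replicate 3. The summit was 689 bp upstream of eIF2Bbeta and 30 bp upstream of Ugalt, a UDP-galactose transporter gene on the opposite strand, so the nearer start is that of Ugalt. The other 9 genes with symbols starting eIF2 had no IDR summit, so that 1 of 10 had one, against 12.2% of all genes. This group was set by symbol and takes in eIF2A and eIF2D beside the subunit genes of eIF2 and eIF2B. Any pooled region was found at 4 of the 10, against 55.9% of all genes and 23 of all 44 eIF genes (52.3%). Of the 6 in this group with none, eIF2A, eIF2D and eIF2Bdelta had regions in replicate 2 alone, with best ranks of 1802, 1811 and 1836. The eIF2 subunit gene eIF2beta came closest, with a pooled signal of 74.8 and a q value of 0.997%, 303 bp upstream of its start.

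eIF6, whose product keeps the large ribosomal subunit from joining too early and acts in ribosome assembly, had the next strongest, rank 60. The region at 2R 23850280 to 23850532 had a pooled signal of 333.1, with 164.6 (rank 88) in replicate 2 and 163.7 (rank 61) in replicate 3. The summit, at position 23850402, lay just upstream of eIF6, whose body ends at 23850301 on the minus strand, and 72 bp downstream of the start of the antisense RNA asRNA:CR45928, and the window of ytr also held it. The replicate summits lay within 9 bp of the pooled one. The summits at eIF2Bbeta and eIF6 were thus near the top of either replicate's list.

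eIF1, whose product acts in the scan for the start codon, shares its upstream region with RpL28, a ribosomal protein gene on the opposite strand. Its stronger summit (3L 3222824 to 3223259, signal 126.9) was 299 bp upstream of eIF1 and 82 bp upstream of RpL28. The weaker (signal 91.3) was 99 bp upstream of eIF1 and 282 bp upstream of RpL28. Each replicate had a single region within 250 bp of these, with a signal of 75.8 (rank 504) in replicate 2 and 52.4 (rank 817) in replicate 3, so the 2 summits are not separate in either replicate. Of the remaining initiation factors outside the numbered complexes, eIF5B, which joins the subunits, had a pooled signal of 58.6 (q 4.37%) deep in its 32320 bp body, eIF5 reached 41.8, and eIF1A had no pooled region, although it had 3 regions in replicate 2 (best rank 2137) and 5 in replicate 3 (best rank 6261).

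The eIF3 complex genes, 16 with the paralogue pairs d, f and g, had 2 with an IDR summit (12.5%), against 12.2% of all genes. At eIF3c, a core subunit gene, the region at 2R 17665386 to 17665821 had a pooled signal of 146.6 and a summit 74 bp before the first base of the gene, with 72.1 (rank 564) in replicate 2 and 72.1 (rank 403) in replicate 3. eIF3h had its summit in an intron at 2L 5052302 to 5052737 (signal 115.5), 574 bp inside the gene and 260 bp downstream of a second annotated start. That summit had a signal of 75.0 (rank 515) in replicate 2, whereas replicate 3 listed no region in the body of eIF3h or 1 kb upstream. The eIF3h region is thus in the IDR set without a counterpart in replicate 3.

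eIF3m stood just outside the IDR set, with a pooled signal of 77.4 against the lowest nuclear IDR signal of 78.4. Its region at 2R 14164775 to 14165210 ranked 2072 in replicate 2 and 1213 in replicate 3, and its summit lay 168 bp upstream of eIF3m and 58 bp upstream of CG8323. eIF3l had a pooled signal of 61.6 (q 2.92%), 175 bp upstream of its start. Of the 16 eIF3 genes, 7 had any pooled region (43.8%), against 55.9% of all genes, and 9 had none. The share was 8 of 13 in the eIF4 group (61.5%, Wilson interval 35.5 to 82.3%). In the other eIF genes it was 4 of 5 (80.0%, 37.6 to 96.4%). Both intervals contain the share of all genes. Median body length was 3791 bp in the eIF4 group and 4967 bp in the other eIF genes, and the part of length was not tested.

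In the eIF4 group, 1 of 13 genes had an IDR summit (7.69%, Wilson interval 1.37 to 33.3%), against 12.2% of all genes. That gene was eIF4EHP. Its product binds the mRNA cap without recruiting the scaffold eIF4G and represses chosen mRNAs, caudal and hunchback among them in the early embryo. The stronger summit (3R 24108916 to 24109351, signal 160.3) lay 174 bp upstream of eIF4EHP and 202 bp upstream of CG18428 on the opposite strand, with 83.7 (rank 415) in replicate 2 and 76.6 (rank 337) in replicate 3. The second (signal 92.3) was in an intron 9843 bp inside the 45884 bp gene, with ranks 1132 and 1360 in replicates 2 and 3. The body of eIF4EHP, the longest of any member, and its upstream 1 kb held 29 pooled regions in all. eIF4A, the RNA helicase, had a best pooled signal of 28.3, and eIF4E1, the cap-binding protein, one of 29.9, both with q values above 60%. The scaffold gene eIF4G1 had an intronic region of 71.4 (q 1.12%), with rank 1424 in replicate 2 and 5661 in replicate 3. The paralogues eIF4E3, eIF4E4, eIF4E5, eIF4E6 and eIF4E7 had no signal above 26.7.

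**Figure D2:**
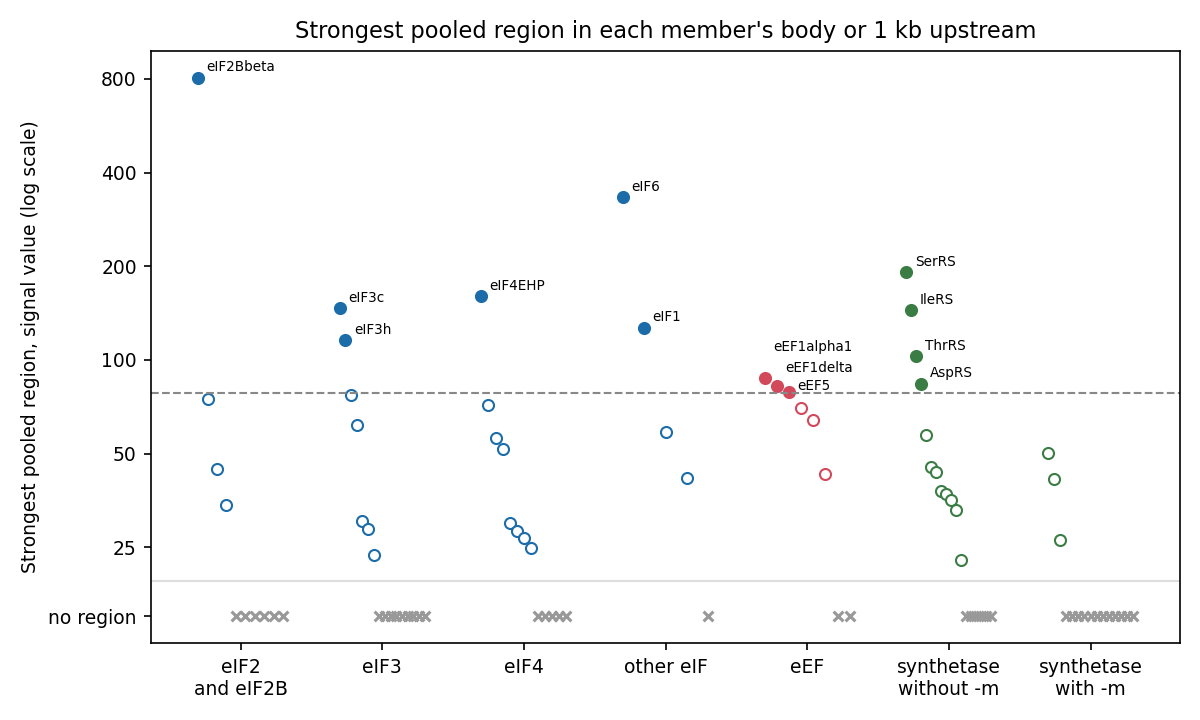
Strongest pooled region, by signal value on a log scale, in the body or 1 kb upstream of each of the 85 members, grouped by role. Filled points have an IDR summit and are named, open points have weaker pooled regions, and crosses have no pooled region. The dashed line is the lowest nuclear IDR signal, 78.4, and 12 of the 15 synthetase genes with -m are crosses.

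All 3 elongation factor genes with an IDR summit were in the weaker part of the set. eEF1alpha1, which delivers charged tRNAs, had a pooled signal of 87.5 at 2R 11891683 to 11892118, with 47.4 (rank 1349) in replicate 2 and 40.7 (rank 1478) in replicate 3. The summit was in an intron, 766 bp inside the gene and 221 bp upstream of a later annotated start of eEF1alpha1. eEF1delta, part of the complex that recharges eEF1alpha, had 82.3 in an intron 398 bp inside the gene (2L 10232687 to 10233122), with 36.4 (rank 2419) in replicate 2 and 45.2 (rank 1152) in replicate 3. eEF5, the hypusine-bearing factor also known as eIF5A, had 79.0 at 278 bp upstream (2R 24057302 to 24057737), just inside the limit of 78.4. The replicate 2 region matched to eEF5 had its summit 213 bp from the pooled one, with rank 5609, a signal of 25.6 and a q value of 8.55%. In replicate 3 the distance was 5 bp, with rank 867 and a signal of 50.9.

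Of the other 5 eEF genes, eEF1beta had a pooled signal of 69.9 (q 1.33%), 279 bp upstream of its own start and 229 bp upstream of Psi. eEF1alpha2 had 64.1 (q 2.30%) at 150 bp upstream. With these, 5 of 8 eEF genes (62.5%, Wilson interval 30.6 to 86.3%) had a pooled region with a q value below 5%, against 19.6% of all genes. The translocase gene eEF2 had 43.1 (q 24.5%), and eEF1gamma and eEFSec had no pooled region. Any pooled region was thus found at 6 of 8 eEF genes (75.0%, Wilson interval 40.9 to 92.9%), against 55.9% of all genes, a share inside that interval.

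eEF1gamma, a further subunit of the complex that recharges eEF1alpha, was listed in replicate 2 alone. There a region at 3R 29219879 to 29220318, 73 bp upstream of the start, had a signal of 106.9 and rank 253, but neither replicate 3 nor the pooled list held an overlapping region. Among the strongest nuclear regions of replicate 2, as many as the IDR set holds, 73 of 1591 (4.59%) had no overlapping pooled region, against 26 of 1603 (1.62%) for replicate 3.

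Of the synthetase genes, SerRS had the strongest summit, in the 5′ non-coding part of its first exon 41 bp inside the gene and 49 bp upstream of CG17260 on the opposite strand. Its region at 2L 3037144 to 3037579 had a pooled signal of 192.0, with 89.1 (rank 369) in replicate 2 and 98.7 (rank 204) in replicate 3. IleRS had a signal of 144.3 at 152 bp upstream (3L 22288295 to 22288730), with ranks 557 and 414 in replicates 2 and 3, in the region it shares with Hem, a gene of the WAVE actin-regulating complex. ThrRS had 102.6 at 150 bp upstream (2L 12103383 to 12103818), with ranks 1168 and 883 in replicates 2 and 3, and Patsas starts on the other side. AspRS had 84.0 in an intron 3026 bp inside the gene (2R 12879812 to 12880247), 254 bp upstream of a later AspRS start and 200 bp inside Nmda1, with ranks 1876 and 1214. These 4 regions were listed in each replicate, and AspRS alone fell outside the 1607 strongest regions of replicate 2.

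Outside the IDR set, AlaRS had a pooled signal of 57.6 (q 4.82%) at 44 bp inside the gene. The best region of AlaRS in replicate 2 ranked 1673, and replicate 3 had none at the gene. AsnRS ranked 5799 in the pooled list (45.3), 881 in replicate 2 (59.5, 107 bp upstream) and had no region in replicate 3. Of the 13 synthetase genes without -m that had neither an IDR summit nor a q value below 5%, AsnRS included, 7 had weaker pooled regions and 6 had none. GluProRS, which charges both glutamate and proline tRNAs, had no pooled region but ranked 559 in replicate 3 (signal 61.6, 108 bp upstream). Replicate 2 held no region overlapping that one, and its only region at the gene ranked 21832 (14.0).

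The synthetase genes with -m had the lowest share of genes with a pooled region among the 7 role groups. Of 15, 3 had any pooled region (20.0%, Wilson interval 7.05 to 45.2%), against 55.9% of all genes, and 12 of 18 (66.7%) without -m did. The 3 genes with -m were AspRS-m (50.2), TrpRS-m (41.5) and MetRS-m (26.4), with q values of 12.2, 28.1 and 71.7%. LeuRS-m had a region of signal 110.2 and rank 237 in replicate 2 at 3L 4824796 to 4825235, 837 bp upstream of its start and 671 bp inside Dhc64C, with no overlapping region in replicate 3 or the pooled list. Median body length was 2727 bp for genes with -m and 3090 bp for those without, and the part of length in these shares was not tested.

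Across all members, 14 of 85 (16.5%) had a summit among the 1607 strongest regions of replicate 2, against 12.6% of all genes, and 14 of 85 (16.5%) among those of replicate 3, against 11.8%. The 2 sets shared 9 genes, which is 9 of 14 in each. The same overlap over all genes is not given here, so this count has no background to be read against. Among the 1607 strongest of replicate 2 and not of replicate 3 were AsnRS, LeuRS-m, eEF1gamma, eIF3h and eIF4G1, of which eIF4G1 had weaker regions in replicate 3. Among those of replicate 3 and not of replicate 2 were AspRS, GluProRS, eEF1delta, eEF5 and eIF3m, all with weaker regions in replicate 2. At GluProRS the weaker region did not overlap the strong one of replicate 3. Of the 15 member IDR summits, 14 had a summit of both replicates within 250 bp, against 97.0% of all nuclear ones, a match partly built into the IDR set. Signal scales differ between lists, so ranks are compared and not signals.

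**Figure D3:**
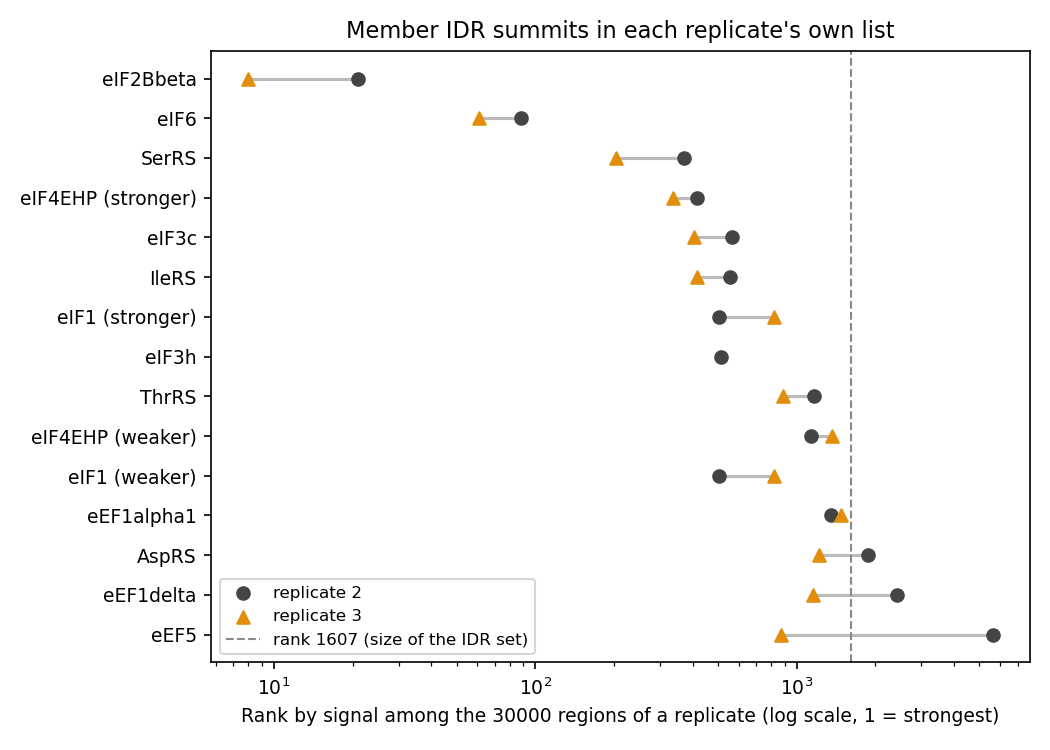
Rank by signal, on a log scale, of the 15 member IDR summits in the list of replicate 2 (circles) and replicate 3 (triangles), ordered by pooled signal from top to bottom. eIF3h has no triangle because replicate 3 listed no region there, both eIF1 rows show the same replicate regions, and AspRS, eEF1delta and eEF5 lie beyond rank 1607 in replicate 2.

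Most member summits lay close to starts. Of 15 summit and gene pairs, 13 (86.7%, Wilson interval 62.1 to 96.3%) were within 500 bp of a start of the same gene. Over all genes with an IDR summit it was 65.1% of 2048 pairs, a share inside that interval. Of the 13 member pairs, 10 had the summit upstream of that start. The median place of the 13 was 150 bp upstream, against 159 bp upstream for all genes. The nearest annotated start belonged to the member in 10 of 15 pairs (66.7%), against 66.5% over all genes. A protein-coding start on the opposite strand was within 500 bp of the summit in 10 of 15 pairs (66.7%), against 41.5% of all pairs. RpL28 was counted there for both eIF1 summits. In the 10 pairs the summit cannot be assigned to the member rather than to its neighbour.

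**Figure D4:**
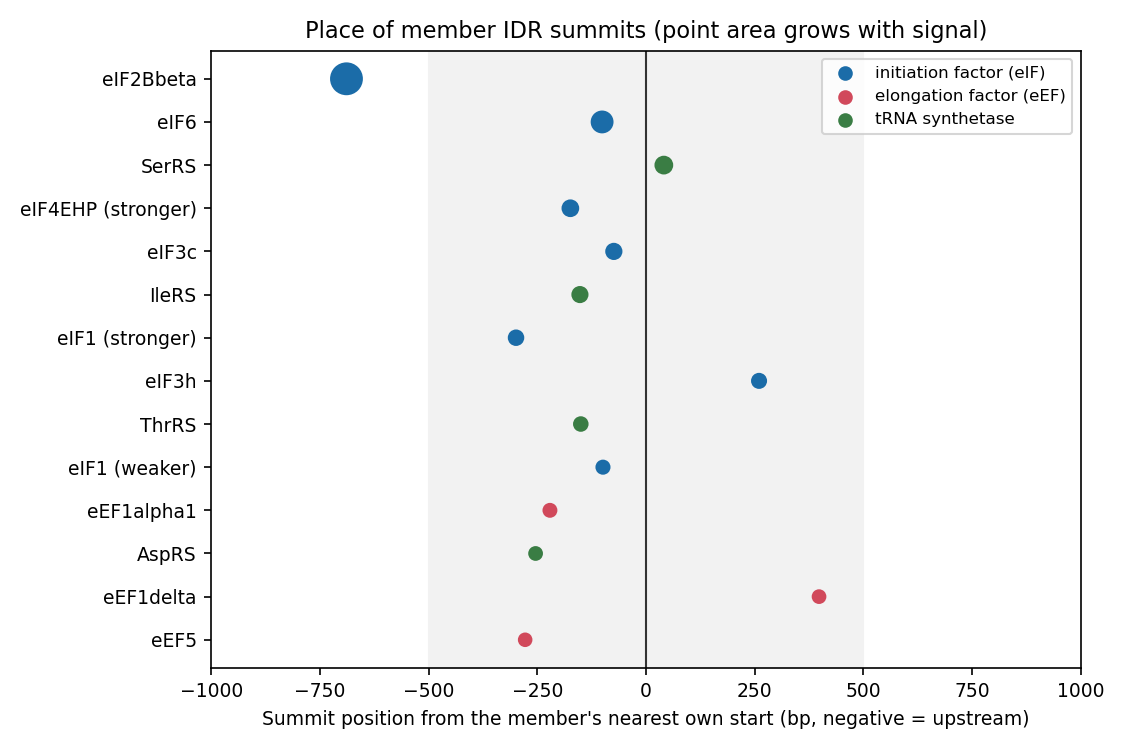
Position of member IDR summits, in bp, from the nearest annotated start of the same gene (negative is upstream), coloured by family, with point area growing with signal. The grey band is 500 bp either side, which holds 13 summits, while eIF2Bbeta lies 689 bp upstream and the intronic eIF4EHP summit, 9843 bp inside the gene, is beyond the axis.

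The summits were rich in A and T. Windows of the same size at the 15 member summits had a mean G+C content of 32.6% ± 7.05 (SD over summits), against 31.1% ± 7.19 for all 1595. The range over members ran from 25.7% at SerRS, IleRS, eEF1alpha1 and the stronger eIF4EHP summit to 48.5% at eIF3h. Windows centred 100 bp upstream of the 5′ end had 33.0% for the 85 members and 37.6% for all protein-coding genes. At the matching regions of the replicates, the mean was 35.9% in replicate 2 and 28.4% in replicate 3. These means are not over the same loci, since replicate 3 has no region at eIF3h, the window with the highest value. They differ by more than the means of members and of all IDR summits do. The part of the missing locus in this was not tested.

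Of the 10 motifs, each searched on both strands, TTAAAA was in 8 of 15 member windows (53.3%), both eIF1 windows among them. It was in 39.7% of all nuclear IDR windows and 27.5% of windows 100 bp upstream of all genes. TTAAAA and TAGTAA had been prominent in earlier results of these data. The homeodomain site TAATTA was in 2 windows (13.3%, at AspRS and eIF1) against 11.2% of IDR windows, and TAATTG, which shares 5 letters with it, in 1 (6.67%, at eIF2Bbeta) against 12.2%. TAAGTG, a site of the kind bound by NK-class homeodomains, was in 2 (13.3%, at SerRS and eIF4EHP) against 5.45%. The DRE motif TATCGATA, common at housekeeping promoters, was in 1 (6.67%, at eIF1) against 1.25%, and TAGTAA in 1 (6.67%, at IleRS) against 8.84%. GGTCACAC, the core of a housekeeping promoter motif, the E-boxes CACGTG and CAGCTG and the GAGA factor site GAGAGA were in 0 of 15, against 0.376%, 0.502%, 2.45% and 3.20% of IDR windows. With 15 windows, these shares are descriptions only.

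Related translation genes outside the naming rule were counted in the same way. Of 22 found from 24 symbols sought, 3 (13.6%) had an IDR summit, against 12.2% of all genes, namely eRF1, a release factor gene, Thor, the eIF4E-binding repressor gene, and Paip2, which binds the poly(A)-binding protein. None of the 3 multi-synthetase complex genes AIMP1, AIMP2 and AIMP3, the 2 cytoplasmic phenylalanine synthetase genes or the 8 mitochondrial translation factor genes had one, against the same 12.2% of all genes. Among the strongest regions of replicate 3 the count was 2 of 22 (9.09%), Paip2 and pAbp, against 11.8% of all genes.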

How the data were processed

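Per the file records deposited with the samples, each replicate's list and the pooled list were made against a control alignment on dm6, and these 3 lists gave rise to the IDR set. Not given in the sources used here: peak caller, aligner and the cutoff of the IDR step. The authors deposited a signal value per region, on the caller's own scale, and a −log10 q value, converted here to a q value in percent. Its lowest pooled value was 0.653%, shared by all IDR regions, so regions were ranked by signal. Lists made on dm3 were not used here. No test was run, since 1 group of 2 samples has no contrast. Depth is unknown.

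Summits were assigned to genes of Ensembl release 115 (BDGP6.54, without transposable elements), whose coordinates for all 85 members lay on the same arm and within 1 kb of RefSeq's. Assignment was checked on simulated data. Python 3.11.15, numpy 2.4.6, pandas 2.3.3, scipy 1.17.1 and matplotlib 3.10.9 were used. Each member with an IDR summit is named and, of members without one, those with q below 5% and the 2 with the strongest pooled region per family. eIF4A, eIF4E1, its paralogues, eIF5, eIF1A, eEF2, eEF1gamma, eEFSec, GluProRS, eIF2A, eIF2D, eIF2Bdelta, TrpRS-m, MetRS-m and LeuRS-m, and the genes among the strongest regions of 1 replicate alone, were named after their values were seen. The members and lists were chosen with earlier results of these data known. No sequence was printed from 2R.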

Additional observations from a re-analysis of the deposited data

How the results depend on the processing

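Counts of members with an IDR summit kept within 1.5 times of 13 in 6 of the 9 planned settings, among them each replicate's list alone (14 each) and genes assigned by nearest start (10, without AspRS, eIF2Bbeta and eIF6). The count was 8 (9.41%, against 6.72% of all genes) when only IDR regions above the median signal were kept, 21 (24.7%, against 19.6%) with pooled regions of q below 5%, and 6 (7.06%, against 5.33%) with the gene body only, so members and all genes moved the same way. With genes over 5 kb it was 2 (15.4%, against 21.9%), by fewer genes counted. eIF genes gave 11 with q below 5% and 2 with the body only. eEF genes gave 0 with the stronger part and 5 with q below 5%. Synthetase genes gave 2 with the stronger part and 2 with the body only. Summits within 250 bp of the member's own start were 53.3%, in place of 86.7% within 500 bp. The median signal was 109 over the 10 summits nearest to a member's start, in place of 115.5. That is below the median of 110.5 for all nuclear IDR summits, whereas 115.5 is above it. The cause of these changes was not tested beyond what the settings themselves remove or add. All other settings tried for these results, for matching distance and for G+C window width stayed within 1.5 times of the count or within the spread between summits. No paired analysis was possible because the 2 samples form 1 group. Unknown depth limits every list: a gene without a region is not shown to be unbound.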
